A study of Homo sapiens with 6 samples.

Results

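The genes described here encode the proteins of the mitochondrial ribosome. They were taken as every symbol in the expression table made of MRPL or MRPS, a number and at most 1 further letter. This gave 78 genes of the 15832 in the table, 49 with an MRPL and 29 with an MRPS symbol. RNA was sequenced from AsPC-1, an established human pancreatic cancer cell line, in 3 libraries of cells given siVCPIP1, an siRNA against VCPIP1, and in 3 libraries of cells given siControl, a control siRNA. All cells were transfected and harvested 48 h later, so both groups share the transfection and the cell line. VCPIP1 encodes a deubiquitinating enzyme that acts with the ATPase p97. The labels do not say how many siRNAs made up siVCPIP1, and the results come from a single cell line. The values are TPM, a measure of each gene's share of the transcripts in a library in which reads are divided by transcript length and every library sums to the same total.

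The mitochondrial ribosome, or mitoribosome, translates the few proteins encoded by mitochondrial DNA, all of them parts of the respiratory chain and of ATP synthase. Its RNA comes from the mitochondrial genome, whereas its proteins are encoded in the nucleus, made in the cytosol and imported. Some of them have counterparts in the bacterial ribosome and others are found in mitochondria alone. MRPL symbols were given to proteins of the large subunit, which joins amino acids, and MRPS symbols to those of the small subunit, which reads the mRNA. Later structures of the mammalian mitoribosome placed MRPS30 and MRPS18A in the large subunit, and they are counted with it here.

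Among the 78 genes, lower TPM in siVCPIP1 went with a lower GC content of the transcript. Coding sequence of 3 genes from each end of the range is shown for this reason, as 120 bases from the middle of the coding sequence (GENCODE release 29, GRCh38, coding strand, 5′ to 3′), with G and C in capitals. The middle was chosen after the first 120 coding bases had been seen to be richer in G and C than the middle in 5 of these 6 genes. MRPL23 (chromosome 11), MRPS18A (chromosome 6) and MRPS12 (chromosome 19) were higher in siVCPIP1 and have 67, 63 and 79 G or C among the 120 bases. MRPL1 (chromosome 4), MRPS30 (chromosome 5) and MRPL32 (chromosome 7) were lower and have 49, 50 and 49.

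MRPL23: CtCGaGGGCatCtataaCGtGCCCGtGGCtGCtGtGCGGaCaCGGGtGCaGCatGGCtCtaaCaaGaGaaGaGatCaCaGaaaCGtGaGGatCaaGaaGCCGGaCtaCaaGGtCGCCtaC
MRPS18A: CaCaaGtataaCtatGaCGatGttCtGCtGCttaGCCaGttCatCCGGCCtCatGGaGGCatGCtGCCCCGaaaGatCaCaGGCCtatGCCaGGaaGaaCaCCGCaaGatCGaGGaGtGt
MRPS12: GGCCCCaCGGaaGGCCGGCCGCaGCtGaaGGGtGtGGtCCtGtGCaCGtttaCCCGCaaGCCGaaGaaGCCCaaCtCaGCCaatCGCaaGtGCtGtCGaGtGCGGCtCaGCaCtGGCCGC
MRPL1: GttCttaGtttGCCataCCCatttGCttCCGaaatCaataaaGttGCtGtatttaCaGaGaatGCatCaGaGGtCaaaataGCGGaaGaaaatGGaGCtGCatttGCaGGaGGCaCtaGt
MRPS30: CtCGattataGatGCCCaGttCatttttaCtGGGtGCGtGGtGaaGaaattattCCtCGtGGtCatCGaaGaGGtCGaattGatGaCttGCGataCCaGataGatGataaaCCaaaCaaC
MRPL32: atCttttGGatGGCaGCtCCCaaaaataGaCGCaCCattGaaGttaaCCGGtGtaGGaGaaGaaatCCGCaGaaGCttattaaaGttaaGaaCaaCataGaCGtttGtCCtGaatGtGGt

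The GC content of the whole coding sequence was 61.4% in MRPL23, 58.0% in MRPS18A and 65.2% in MRPS12, against 38.4% in MRPL1, 51.2% in MRPS30 and 51.4% in MRPL32. Over their first 120 coding bases, MRPL23, MRPS18A and MRPS12 have 64.2%, 69.2% and 62.5% GC, and MRPL1 has 47.5%. MRPS30 and MRPL32 have 66.7% and 65% GC over their first 120 coding bases and 41.7% and 40.8% over the 120 bases shown. In the first window both thus exceed MRPL23 and MRPS12, so the contrast shown depends on the window for these genes.

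The libraries as a whole differed before any single gene was considered. VCPIP1 itself had 0.12, 0.11 and 0.27 TPM in siVCPIP1, against 2.93, 3.06 and 2.24 TPM in siControl (log2 fold change -1.68, SE 0.13, adjusted p = 2.0e-05 by limma). Its change was 0.26 after correction for GC content and length (adjusted p = 0.066 by limma). Its siControl mean was 2.74 TPM, which bounds its fall on the log2(TPM + 1) scale. The corrected value therefore cannot show how far VCPIP1 fell. The scale also bounds the fall of other genes low in siControl. MRPL50, TFAM and TRMT61B, with siControl means of 7.62, 7.56 and 9.44 TPM, are examples, and their corrected values below are limited likewise. The median TPM over all genes was 1.24 to 2.26 in siVCPIP1 and 6.18 to 7.44 in siControl, and genes with under 45% GC held 4.02% to 6.20% of all TPM in siVCPIP1 and 13.5% to 15.6% in siControl. Replicate 3 of siVCPIP1 stood closest to siControl in both measures. Of 7 epithelial markers, KRT8, KRT18 and KRT19 were each at 3909 TPM or more in every library. EPCAM, however, had 3.19, 2.99 and 11.7 TPM in siVCPIP1, against 162, 196 and 157 TPM in siControl, and CDH1 had 0.42, 0.28 and 1.33 TPM in siVCPIP1, against 27.5, 31.7 and 27.6 TPM in siControl. CLDN4 had 94.2 to 158 TPM in siVCPIP1 and 195 to 213 TPM in siControl, and ELF3 had 107 to 155 TPM in siVCPIP1 and 73.2 to 76.4 TPM in siControl. Markers of immune and endothelial cells summed to under 3 TPM in any library, and those of fibroblasts to 1.5 to 4.51 TPM in siVCPIP1 and 45.3 to 69.0 TPM in siControl. The fibroblast sum was nearly all LUM, which gave 1.24, 1.08 and 3.71 TPM in siVCPIP1, against 56.7, 67.4 and 44.1 TPM in siControl, while COL1A2, DCN and PDGFRB stayed under 1 TPM in every library. Whether any of these differences has a part in the results below was not tested. In bulk RNA, fewer cells of a type and less RNA per cell cannot be told apart.

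All 78 mitoribosomal genes passed the filter, an average of 1 TPM or more across the 6 libraries, and were tested. With TPM as deposited, 45 (57.7%) were lower and 21 (26.9%) higher in siVCPIP1, and 12 did not pass the test (limma on log2(TPM + 1), adjusted p under 0.05), but after median-of-ratios scaling the balance was turned, with 26 lower and 45 higher. Over all 10966 genes tested, 66.0% were lower and 15.0% higher with TPM as deposited. The mitoribosomal genes thus had a smaller share of lower and a larger share of higher calls than all genes with TPM as deposited, and the opposite after quantile normalization, and the difference in shares was not tested. Their median log2 fold change was -0.71, against -1.12 over all genes tested, and single genes ranged from -3.65 for MRPL1 to 1.27 for MRPL23. Every siVCPIP1 library lay below every siControl library in 45 of the 78 genes, against 67.9% of all genes, and above in 23, against 18.2%. The groups overlapped in the other 10.

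The genes together held a larger share of the measured transcripts in siVCPIP1, although more of them were lower than higher with TPM as deposited. Their summed TPM was 10564, 10773 and 10027 in siVCPIP1, against 9195, 8886 and 8763 in siControl, or 1.05% ± 0.04 and 0.895% ± 0.022 of all TPM (SD, n = 3 each). The sums of the groups did not overlap. Every library sums to the same total, and genes under 45% GC averaged 4.89% of all TPM in siVCPIP1 and 14.6% in siControl. The remaining genes together therefore gained share as well. The rise of the members was not compared with theirs, and the sums were taken only with TPM as deposited. The large subunit outweighed the small one in summed TPM by 2.0, 1.96 and 1.91 times in siVCPIP1 and by 2.03, 1.99 and 1.97 times in siControl, and these ratios overlapped between the groups.

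Levels were spread far more widely among the 78 genes in siVCPIP1, but the same measures were not taken over all genes. In the whole table, 8359 to 9678 genes of a siVCPIP1 library had 1 TPM or more, against 11175 to 11373 in siControl. A larger number of genes at low TPM was thus not particular to the 78. The lowest gene of a library had 0.15 to 0.62 TPM in siVCPIP1 and 6.75 to 8.61 TPM in siControl, and the highest had 973 to 1156 TPM in siVCPIP1 and 605 to 693 TPM in siControl. The standard deviation of log2(TPM + 1) over the 78 genes was 2.53, 2.53 and 2.07 in siVCPIP1, against 1.38, 1.28 and 1.33 in siControl. Between 5 and 13 genes of a siVCPIP1 library were under 5 TPM, and 0 in any siControl library. The siVCPIP1 mean was less than 0.5 times the siControl mean in 32 genes and less than 0.2 times in 16, and it was at least 1.5 times in 14 and 2 times in 10. The order of the genes by TPM was closely alike within a group, with Spearman's rho of 0.984 to 0.997 within siVCPIP1 and 0.974 to 0.984 within siControl over the 78 genes, and 0.801 to 0.917 between the groups. These correlations describe libraries that share the same genes and scale.

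**Figure D1:**
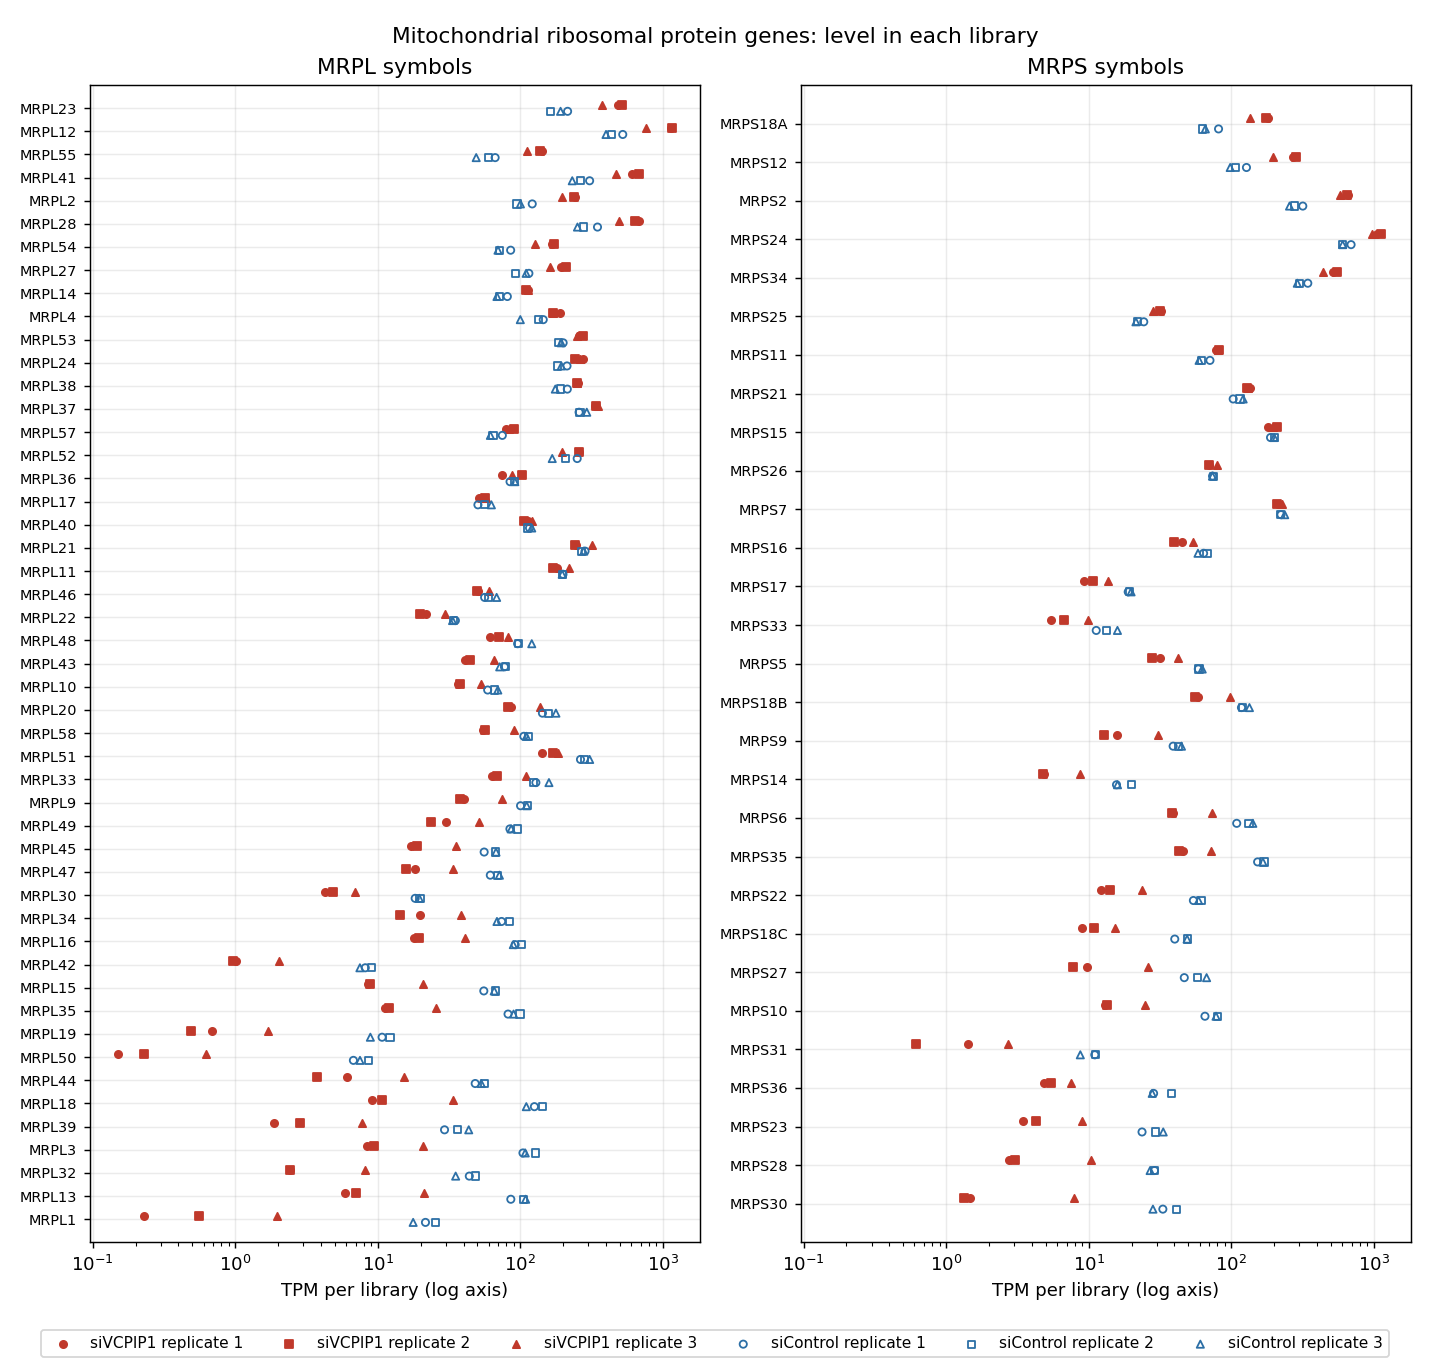
TPM of each of the 78 genes in each library on a log axis, MRPL symbols in the left panel and MRPS symbols in the right, ordered by fold change with the largest rise at the top. Filled red symbols are the 3 siVCPIP1 libraries and open blue symbols the 3 siControl libraries. The siVCPIP1 points reach from 0.15 to 1156 TPM, whereas the siControl points lie between 6.75 and 693 TPM, and replicate 3 of siVCPIP1 (triangles) lies nearest to siControl in each of the 45 lower genes.

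The highest levels belonged largely to the same genes in both groups. MRPS24, which forms part of the mRNA entry site of the small subunit, was the most abundant by group mean in siVCPIP1 and in siControl. It had 1055, 1119 and 973 TPM in siVCPIP1, against 693, 606 and 605 TPM in siControl. All 3 siVCPIP1 libraries were above all 3 siControl libraries, with a log2 fold change of 0.73 (SE 0.12, adjusted p = 0.00039 by limma), but it was 0.17 and not called after correction for GC content and length (adjusted p = 0.091). MRPL50, a large-subunit protein found in mitochondria alone, had the lowest mean of the 78 genes in both, with 0.333 ± 0.252 TPM in siVCPIP1 and 7.62 ± 0.94 TPM in siControl (SD, n = 3 each). MRPL50 was lower in siVCPIP1 by -2.70 on the log2 scale (SE 0.18, adjusted p = 2.0e-05 by limma), and by -0.39 after correction for GC content and length (adjusted p = 0.024). With a pseudocount of 0.1 TPM its uncorrected change was -4.30.

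Among the 30 large-subunit genes with bacterial counterparts, 17 were lower and 9 higher in siVCPIP1 with TPM as deposited and 12 and 17 after median-of-ratios scaling, which turns the balance. Their median log2 fold change was -0.65 with TPM as deposited. Over all genes tested, 66.0% were lower and 15.0% higher with TPM as deposited, with a median of -1.12. After median-of-ratios scaling these shares were 45.1% and 40.3%. This class and those below were not tested against all genes. MRPL1 encodes the protein of the L1 stalk, a mobile arm beside the site where spent tRNA leaves the ribosome. Its gene spans bases 77862520 to 77952790 of chromosome 4, plus strand, (GRCh38, GENCODE 29) and has 9 exons. It had 0.230, 0.560 and 1.98 TPM in siVCPIP1, against 21.6, 25.5 and 17.7 TPM in siControl. All 3 siVCPIP1 values were far below all 3 siControl values, and the siVCPIP1 mean was 4.27% of the siControl mean. The log2 fold change of MRPL1 was -3.65 (SE 0.33, adjusted p = 2.1e-05 by limma), and -1.20 after correction for GC content and length (adjusted p = 0.00019).

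MRPL3, MRPL13, MRPL18 and MRPL32, all in the same class, were also among the 8 largest falls. MRPL3, a core protein near the peptidyl transferase centre, had 8.37, 9.48 and 20.6 TPM in siVCPIP1, against 104, 127 and 108 TPM in siControl (log2 fold change -3.15, SE 0.30, adjusted p = 2.4e-05 by limma). MRPL13 had 5.94, 7.09 and 21.0 TPM in siVCPIP1, against 85.8, 106 and 109 TPM in siControl (log2 fold change -3.23, SE 0.39, adjusted p = 7.3e-05). In both genes replicate 3 of siVCPIP1 was more than 2 times either of the other siVCPIP1 libraries and still far below siControl. MRPL32 carries a zinc-binding fold and is cut by the m-AAA protease before it joins the ribosome. It had 2.44, 2.42 and 8.09 TPM in siVCPIP1, against 43.9, 48.3 and 35.2 TPM in siControl (log2 fold change -3.18, SE 0.37, adjusted p = 5.9e-05). MRPL18 had 9.12, 10.7 and 33.8 TPM in siVCPIP1, against 126, 144 and 110.2 TPM in siControl (log2 fold change -2.98, SE 0.41, adjusted p = 0.00016). The groups were apart in every one of these 4 genes, and the 4 genes were also called lower in each of the other 3 fits described below. After correction for GC content and length their falls were smaller, at -0.84 for MRPL3, -1.13 for MRPL13, -1.53 for MRPL32 and -1.74 for MRPL18.

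At the other end of the same class were MRPL23, MRPL12, MRPL55, MRPL2 and MRPL28. MRPL23 lies at the exit of the tunnel through which the new protein leaves. Its gene spans bases 1947278 to 1984522 of chromosome 11, plus strand, (GRCh38, GENCODE 29) with 5 exons. It had 484, 521 and 376 TPM in siVCPIP1, against 215, 164 and 192 TPM in siControl. The siVCPIP1 mean was 2.42 times the siControl mean, with no overlap of the groups, and the log2 fold change was 1.27 (SE 0.16, adjusted p = 1.0e-04 by limma), but 0.45 after correction for GC content and length (adjusted p = 0.014). MRPL12, which forms the stalk that recruits translation factors and has also been reported to bind the mitochondrial RNA polymerase, had 1145, 1156 and 767 TPM in siVCPIP1, against 523, 435 and 399 TPM in siControl (log2 fold change 1.16, SE 0.18, adjusted p = 0.00038). It was the second most abundant member by mean in both groups. MRPL2, a core protein of the peptidyl transferase region, had 242, 239.9 and 196 TPM in siVCPIP1, against 121, 94.8 and 100.2 TPM in siControl (log2 fold change 1.09, SE 0.15, adjusted p = 0.00014).

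MRPL28 and MRPL55, counterparts of the bacterial proteins bL28 and bL31, behaved likewise. MRPL28 had 679, 641 and 495 TPM in siVCPIP1, against 348, 276 and 252 TPM in siControl (log2 fold change 1.05, SE 0.17, adjusted p = 0.00040 by limma). MRPL55 had 142, 138 and 111 TPM in siVCPIP1, against 66.6, 60.0 and 49.1 TPM in siControl (log2 fold change 1.14, SE 0.16, adjusted p = 0.00020). In these 5 genes every siVCPIP1 library was above every siControl library, and replicate 3 was the lowest siVCPIP1 library, hence the nearest to siControl. After correction for GC content and length the rises of MRPL12 and MRPL28 were smaller, at 0.44 and 0.43, and those of MRPL55 and MRPL2 were 1.01 and 1.39. The same position of replicate 3 was seen in 16 of the 21 higher genes, and it was the highest siVCPIP1 library in 45 of the 45 lower genes.

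Of the 21 large-subunit genes particular to mitochondria, 11 were lower and 6 higher with TPM as deposited and 5 and 14 after median-of-ratios scaling, again with the balance turned. Their median log2 fold change was -0.55 with TPM as deposited. All genes tested had 66.0% lower and 15.0% higher calls and a median of -1.12. MRPS30, named for the small subunit but placed in the large one, had 1.47, 1.34 and 7.95 TPM in siVCPIP1, against 33.1, 41.4 and 28.2 TPM in siControl (log2 fold change -3.23, SE 0.48, adjusted p = 0.00023 by limma). MRPL39 had 1.87, 2.83 and 7.81 TPM in siVCPIP1, against 29.4, 36.5 and 43.5 TPM in siControl (log2 fold change -3.01, SE 0.38, adjusted p = 1.0e-04). Replicate 3 of siVCPIP1 was more than 5 times the other siVCPIP1 libraries in MRPS30, which had the largest standard error of the 78 genes. MRPL44 has a fold related to that of ribonuclease III. It had 6.07, 3.76 and 15.2 TPM in siVCPIP1, against 48.3, 56.2 and 53.2 TPM in siControl (log2 fold change -2.71, SE 0.39, adjusted p = 0.00020). MRPL41 was on the opposite side, with 612, 681 and 469 TPM in siVCPIP1, against 306, 266 and 232 TPM in siControl (log2 fold change 1.12, SE 0.17, adjusted p = 0.00028). MRPL41 also had the transcript with the highest GC content of the 78 genes, 72.0%. After correction for GC content and length the changes were -1.39 for MRPS30, -0.86 for MRPL39, -0.65 for MRPL44 (adjusted p = 0.032) and 0.50 for MRPL41, each called and smaller than before.

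The 16 small-subunit genes with bacterial counterparts held 9 lower and 4 higher members with TPM as deposited and 3 and 10 after median-of-ratios scaling. Their median log2 fold change was -0.60 with TPM as deposited. Of all genes tested, 66.0% were lower and 15.0% higher, and 45.1% and 40.3% after median-of-ratios scaling. The 10 small-subunit genes particular to mitochondria had the lowest median of the 4 classes, -1.24, close to the -1.12 of all genes tested. They held 7 lower and 2 higher members, and 5 and 4 after median-of-ratios scaling. They also had the lowest median GC content of the 4 classes, 46.9%, against 48.7% for the conserved small-subunit genes and 50.7% and 52.3% for the conserved and mitochondria-specific large-subunit genes.

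MRPS12 and MRPS2 were the small-subunit genes that rose most. MRPS12 forms part of the decoding centre, where codon and tRNA are matched. It had 272, 287 and 196 TPM in siVCPIP1, against 128, 107 and 98.3 TPM in siControl (log2 fold change 1.16, SE 0.18, adjusted p = 0.00028 by limma). MRPS2 had 662, 651 and 578 TPM in siVCPIP1, against 318, 279 and 256 TPM in siControl (log2 fold change 1.15, SE 0.13, adjusted p = 4.4e-05). The lowest siVCPIP1 library was above the highest siControl library by more than 1.5 times in both, and the changes after correction for GC content and length were 0.89 for MRPS12 and 0.80 for MRPS2. MRPS27, a small-subunit protein with the pentatricopeptide repeats of RNA-binding proteins, had 9.77, 7.74 and 26.2 TPM in siVCPIP1, against 46.9, 57.9 and 67.2 TPM in siControl (log2 fold change -2.08, SE 0.38, adjusted p = 0.00094). After correction for GC content and length the change of MRPS27 was -0.21 and was not called (adjusted p = 0.45).

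MRPS18A, MRPS18B and MRPS18C descend from a single ancestor, the gene of bacterial S18, and occupy different places in the ribosome: MRPS18C takes the place of S18 in the small subunit, MRPS18B another site of the small subunit, and MRPS18A a site of the large subunit. With TPM as deposited MRPS18A was higher in siVCPIP1, and MRPS18B and MRPS18C were lower. MRPS18A had 180.3, 175 and 135 TPM in siVCPIP1, against 81.5, 62.9 and 65.8 TPM in siControl (log2 fold change 1.21, SE 0.17, adjusted p = 0.00015 by limma). MRPS18B had 58.3, 55.5 and 97.9 TPM in siVCPIP1, against 118, 119 and 134 TPM in siControl (log2 fold change -0.85, SE 0.22, adjusted p = 0.0055). MRPS18C had 8.91, 10.8 and 15.3 TPM in siVCPIP1, against 40.2, 49.2 and 49.0 TPM in siControl (log2 fold change -1.92, SE 0.21, adjusted p = 4.7e-05). No group overlapped in any of the 3 genes. MRPS18A was the highest of the 3 paralogs in every siVCPIP1 library, and MRPS18B in every siControl library. Their transcripts have 57.3%, 52.7% and 38.0% GC in the order A, B, C. MRPS18A was also called higher in the other 3 fits described below, by 0.97 after GC and length correction. MRPS18B was 0.37 higher after median-of-ratios scaling, and MRPS18C was 0.55 higher after GC and length correction (adjusted p = 0.0064), so only the direction of MRPS18A did not depend on these choices.

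**Figure D2:**
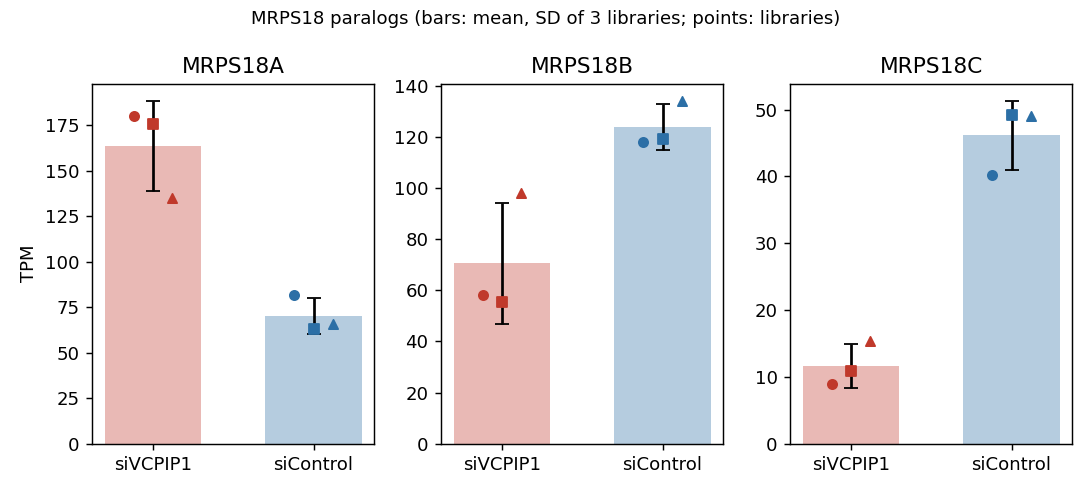
TPM of the paralogs MRPS18A, MRPS18B and MRPS18C in the 3 siVCPIP1 libraries (left of each panel) and the 3 siControl libraries (right), with the mean as a bar, the SD as an error bar and each library as a point. The vertical axes differ between panels and start at 0. MRPS18A lies between 135 and 180.3 TPM in siVCPIP1 and between 62.9 and 81.5 TPM in siControl, whereas MRPS18C lies between 8.91 and 15.3 TPM in siVCPIP1 and between 40.2 and 49.2 TPM in siControl, a difference that turns after GC and length correction.

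MRPL58 and MRPS36 have roles beside the ribosome core. MRPL58, a peptidyl-tRNA hydrolase built into the large subunit that can free stalled ribosomes, had 54.4, 56.6 and 89.8 TPM in siVCPIP1, against 106, 114 and 110.4 TPM in siControl. Replicate 3 of siVCPIP1 came near siControl and the groups did not overlap (log2 fold change -0.75, SE 0.20, adjusted p = 0.0067 by limma), but the change was 0.47 after median-of-ratios scaling. MRPS36, whose product is now regarded as a component of the 2-oxoglutarate dehydrogenase complex rather than of the ribosome, had 4.88, 5.44 and 7.47 TPM in siVCPIP1, against 28.5, 38.1 and 27.9 TPM in siControl (log2 fold change -2.23, SE 0.21, adjusted p = 2.5e-05). After GC and length correction the change of MRPS36 was 0.28 and was not called (adjusted p = 0.059). Its transcript has 35% GC.

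Of the 12 genes that did not pass the test, MRPS15 had the smallest difference, with 181, 210.3 and 196 TPM in siVCPIP1, against 189, 201 and 200.2 TPM in siControl (log2 fold change -0.01, SE 0.12, adjusted p = 0.96 by limma). MRPS26, MRPL36, MRPL17, MRPL40 and MRPL21 had log2 fold changes of -0.02, -0.03, -0.03, -0.04 and -0.06, with standard errors of 0.12 to 0.15 and overlapping groups. In MRPL57 and MRPS21, 2 others of the 12, every siVCPIP1 library lay above every siControl library, but the adjusted p values were 0.053 and 0.12. A small difference in TPM is not a fixed level under every scaling. All 6 genes of smallest difference were higher after median-of-ratios scaling by 1.17 to 1.22. After GC and length correction MRPL17 was 1.65 higher and MRPS26 -0.68 lower.

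The direction of many members depended on how the libraries were brought to a common scale, so each was also read in 3 further fits. Median-of-ratios scaling aligns the median gene of the libraries and moved the median log2 fold change of all genes to -0.14, with 45.1% lower and 40.3% higher; the mitoribosomal genes then had a median of 0.51, with 26 lower and 45 higher. Quantile normalization, which gives all libraries the same distribution, put 38.8% of all genes lower and 42.2% higher around a median of 0.04, and 34 and 29 mitoribosomal genes around a median of -0.055. Removal of each library's trend on GC content and length put 31.6% of all genes lower and 37.2% higher around 0.07, and 20 and 41 mitoribosomal genes around 0.28. Relative to the median of all genes, the median of the mitoribosomal genes was thus 0.41 above it with TPM as deposited, 0.65 above after median-of-ratios scaling, 0.21 above after GC and length correction and 0.09 below after quantile normalization. Median-of-ratios scaling, quantile normalization and the removal of the trend all centre the libraries, so the near-even balance of all genes follows from them.

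**Figure D3:**
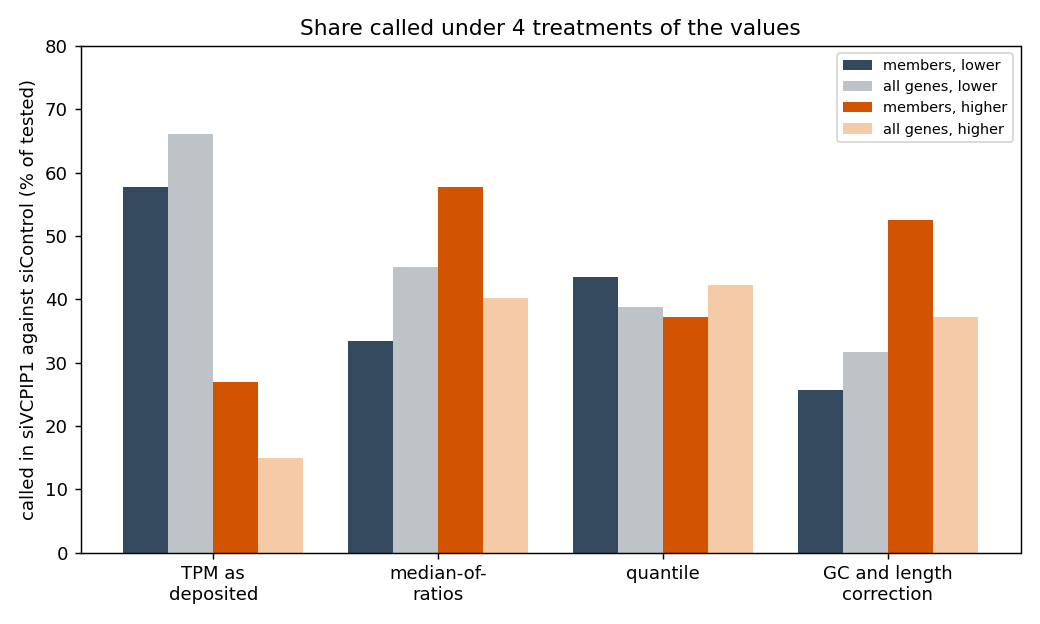
Percentage of genes called lower (dark blue and grey bars) and higher (orange bars) in siVCPIP1 under the 4 fits, for the 78 mitoribosomal genes (dark bars, named members) and for all genes tested (light bars). The mitoribosomal genes had 57.7% lower and 26.9% higher calls with TPM as deposited and 33.3% and 57.7% after median-of-ratios scaling, which turns the balance. They exceeded all genes in the share of higher calls in 3 of the 4 fits and fell below it after quantile normalization.

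Of the 78 genes, 14 were called lower and 17 higher in all 4 fits, against 21.2% and 10.7% of all genes. The 14 lower genes were MRPL1, MRPL3, MRPL13, MRPL15, MRPL16, MRPL18, MRPL32, MRPL34, MRPL39, MRPL44, MRPL50, MRPS22, MRPS28 and MRPS30, and 12 of them belong to the large subunit. The 17 higher genes were MRPL2, MRPL12, MRPL14, MRPL23, MRPL24, MRPL27, MRPL28, MRPL37, MRPL41, MRPL53, MRPL54, MRPL55, MRPS2, MRPS11, MRPS12, MRPS18A and MRPS25, and 13 of them belong to the large subunit, which holds 51 of the 78 genes in all. All 8 of the largest falls and all 8 of the largest rises given above are among them. A further 24 genes were called lower in some fit and higher in another, counting every alternative tried. Of the 45 lower genes, 12 were called higher once median-of-ratios scaling was applied and 15 after GC and length correction. Of the 21 higher genes, 0 were called lower after GC and length correction. These treatments also moved the median over all genes from -1.12 to -0.14 and 0.07, which favours turns from lower to higher. The share of all genes that turned was not counted.

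The change of a member went with the GC content of its transcript. Across the 78 genes, which are not independent replicates and share their libraries, the log2 fold change and transcript GC content correlated at r = 0.768 (Spearman's rho 0.794), and over 10915 genes tested at r = 0.725 (rho 0.737). The 26 members with the lowest GC content, 35% to 46.4%, were all lower, with a median of -2.22. Other genes of under 46.5% GC, with no lower limit, were lower in 96.9% of cases, with a median of -2.09. The 26 in the middle, 46.5% to 52.7% GC, had 14 lower and 3 higher and a median of -0.57, against 82.3% lower, 3.46% higher and a median of -1.30 for other genes. The 26 with the highest GC content, 52.8% to 72.0%, had 5 lower and 18 higher and a median of 0.64. Other genes of 52.8% GC or more, with no upper limit, had 31.5% lower, 33.1% higher and a median of 0.04. The difference of the members from genes of like GC content was not tested as a set. After removal of the trend the correlation over the 78 genes was 0.04. A low value follows largely from the removal itself, because the trend on GC content was fitted and taken out. The level in siControl also went with the change, at r = 0.551 over the 78 genes. What gave rise to the GC trend was not tested.

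**Figure D4:**
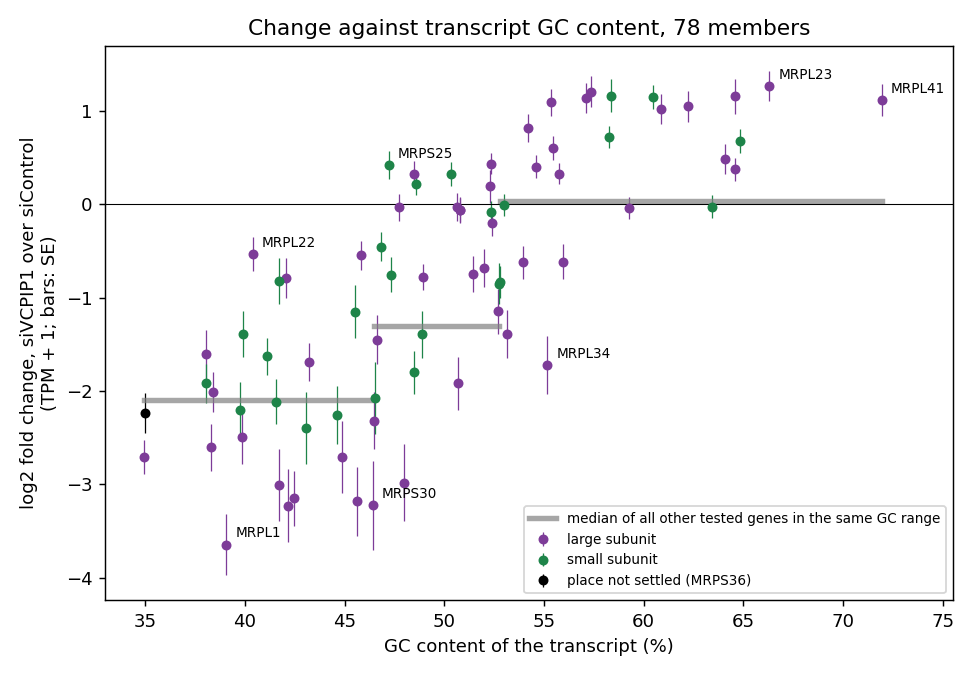
Log2 fold change (siVCPIP1 over siControl, log2(TPM + 1), with TPM as deposited) against the GC content of the transcript in percent, for the 78 genes, with the standard error as a bar. Grey lines give the median of all other tested genes of under 46.5% GC, from there to 52.8%, and of 52.8% or more. Each line is drawn only across the GC range of the members. Genes of up to 46.4% GC all lie below 0, with a median of -2.22, and the 26 with the highest GC content have a median of 0.64. Median-of-ratios scaling lifts the median of all 78 genes to 0.51.

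Several members departed from this trend, and they are named here after their values were seen. MRPL34, the counterpart of bacterial L34, has a transcript of 55.2% GC and was lower, with 19.7, 14.3 and 38.3 TPM in siVCPIP1, against 73.9, 84.3 and 68.6 TPM in siControl. Its log2 fold change was -1.72 (SE 0.31, adjusted p = 0.00078 by limma) and -1.74 after GC and length correction, nearly the same. MRPL16, with 50.7% GC, had 17.9, 19.4 and 40.9 TPM in siVCPIP1, against 92.1, 102 and 89.3 TPM in siControl, and a change of -1.92 (SE 0.28, adjusted p = 0.00024), which was -1.02 after the correction. On the other side, MRPS25, with 47.2% GC, had 32.0, 31.8 and 28.3 TPM in siVCPIP1, against 24.4, 22.0 and 21.5 TPM in siControl. The 0.42 rise of MRPS25 (SE 0.15, adjusted p = 0.027) became 2.09 after the correction. MRPS11, with 50.3% GC, had 78.8, 82.2 and 80.7 TPM in siVCPIP1, against 70.9, 62.2 and 59.5 TPM in siControl, and its change of 0.33 (SE 0.13, adjusted p = 0.044) became 1.70.

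The promoters of the genes held motifs often found in front of nuclear genes for mitochondrial proteins, the ETS and YY1 motifs in a larger share than among promoters at large. The 250 bases before and 50 after the start were available for 69 of the 78 genes (RefSeq, GRCh38.p14) and were searched on both strands for exact matches. The ETS motif CCGGAAG, bound by GABP among others, was in 42.0% of the 69 promoters, against 10.7% of all 27305 promoters of the same length. It was in 43.6% of the promoters of lower genes and 42.1% of those of higher genes. The 27305 promoters were not limited to the 10966 genes tested, and shares among promoters of tested genes alone were not counted. A larger share is thus not shown to be particular to the mitoribosomal genes. The YY1 motif AAGATGGC was in 29% of the 69, against 3.03% of all promoters, and in 30.8% of lower and 21.1% of higher genes. A match can lie in the bases after the start, as the YY1 match of MRPS18A does. Matches before and after the start were not counted apart. The NRF1 motif GCGCATGCG was in 4.35% of the 69, against 2.10% of all. The GC box GGGCGG was in 60.9%, against 44.6%. The E-box CACGTG was in 8.70%, against 7.43%, the CCAAT box in 29%, against 35.7%, and TATAAA in 2.90%, against 12%. None of these motifs contains another, but the end of the ETS motif and the start of the YY1 motif share 3 letters and can overlap. A match is a run of letters and does not show that a factor binds. The median GC content of the promoters was 60.0% in lower and 62.3% in higher genes.

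The promoters of MRPS18A, which rose, and MRPS18C, which fell with TPM as deposited, are shown because with TPM as deposited these paralogs moved apart while both promoters hold an ETS match. Each has 250 bases before and 30 after the start, on the coding strand and 5′ to 3′, with matches to the ETS, YY1 and NRF1 motifs in capitals. MRPS18A is from chr6:43687762-43688041, minus strand, with an ETS and a YY1 match. MRPS18C is from chr4:83455808-83456087, plus strand, with an ETS and an NRF1 match (GRCh38.p14).

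MRPS18A: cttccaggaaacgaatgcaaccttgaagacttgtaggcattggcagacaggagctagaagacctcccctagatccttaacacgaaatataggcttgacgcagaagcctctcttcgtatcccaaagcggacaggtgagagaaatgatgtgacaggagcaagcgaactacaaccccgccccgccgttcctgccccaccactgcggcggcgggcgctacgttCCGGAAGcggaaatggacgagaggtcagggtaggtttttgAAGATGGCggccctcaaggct
MRPS18C: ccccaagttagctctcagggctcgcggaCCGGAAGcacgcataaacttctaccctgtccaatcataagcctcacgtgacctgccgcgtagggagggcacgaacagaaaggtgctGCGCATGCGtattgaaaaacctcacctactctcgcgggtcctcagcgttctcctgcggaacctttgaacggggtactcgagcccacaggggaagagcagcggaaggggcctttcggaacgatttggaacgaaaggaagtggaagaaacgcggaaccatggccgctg

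Genes that work with the mitoribosome were looked at from 5 lists. Their counts stand beside 66.0% lower and 15.0% higher calls over all genes with TPM as deposited, and 45.1% and 40.3% after median-of-ratios scaling, and no list was tested against all genes. Of 5 further ribosome proteins whose symbols do not follow the MRPL and MRPS pattern, PTCD3, DAP3 and CHCHD1 were lower and GADD45GIP1 and AURKAIP1 higher with TPM as deposited. GADD45GIP1, a large-subunit protein at the exit tunnel, averaged 247 ± 57.7 TPM in siVCPIP1 and 81.3 ± 12.3 TPM in siControl (SD, n = 3 each), a log2 fold change of 1.57 (SE 0.20, adjusted p = 9.4e-05 by limma) that exceeded that of any of the 78 genes, and 1.34 after GC and length correction. PTCD3, a pentatricopeptide repeat protein near the mRNA entry site, averaged 5.62 ± 3.39 TPM in siVCPIP1 and 36.1 ± 4.96 TPM in siControl (log2 fold change -2.59, SE 0.32, adjusted p = 8.5e-05), and the change was -0.70 after the correction. DAP3, AURKAIP1 and CHCHD1 had changes of -2.02, 0.78 and -1.0. These 3 calls did not hold after GC and length correction, where the changes were -0.11, 0.05 and 0.31, the last of them a call in the other direction (adjusted p = 0.019).

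Of the 27 assembly factors, which modify the ribosomal RNA or help the subunits form, 17 were lower and 3 higher, with a median of -0.79, shares close to those of all genes. After median-of-ratios scaling 9 were lower and 13 higher. MTERF3 averaged 1.13 ± 0.78 TPM in siVCPIP1 and 12.1 ± 1.28 TPM in siControl (log2 fold change -2.67, SE 0.26, adjusted p = 2.6e-05 by limma). NDUFAB1, the mitochondrial acyl carrier protein, which takes part in a late step of large-subunit assembly, averaged 55.2 ± 41.8 TPM in siVCPIP1 and 261 ± 19.8 TPM in siControl (log2 fold change -2.46, SE 0.41, adjusted p = 0.00049). The changes of MTERF3 and NDUFAB1 were -0.34 and -1.25 after GC and length correction. TRMT61B, an RNA methyltransferase, had a change of -2.37, which was -0.15 and not called after GC and length correction. The 3 higher factors were MTG1, GTPBP6 and MRM1, with changes of 0.77, 0.61 and 0.54. MTG1 and GTPBP6 are GTPases and MRM1 methylates the large ribosomal RNA. After GC and length correction GTPBP6 and MRM1 had changes of 0.09 and 0.14 and were not called.

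Of 17 tested factors of mitochondrial translation and mRNA handling, 15 were lower and 1 higher, with a median of -1.47, against 66.0% and 15.0% of all genes. After median-of-ratios scaling 8 were lower and 5 higher, against 45.1% and 40.3%. The elongation factor GFM1 averaged 1.45 ± 0.99 TPM in siVCPIP1 and 19.1 ± 3.43 TPM in siControl (log2 fold change -3.10, SE 0.29, adjusted p = 2.4e-05 by limma). GFM2, a ribosome recycling factor, and LRPPRC, which stabilises mitochondrial mRNAs, had changes of -2.95 and -3.06. After GC and length correction the changes of GFM1, GFM2 and LRPPRC were -0.86, -0.76 and -1.09. The elongation factor TUFM was the 1 higher gene, with 625 ± 47.5 TPM in siVCPIP1 and 507 ± 53.5 TPM in siControl (log2 fold change 0.30, SE 0.13, adjusted p = 0.049), a call that was lost after quantile normalization (adjusted p = 0.12) and in 5 of the 6 fits without 1 library. The median GC content of these 17 transcripts was 42.8%.

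Of 10 genes for transcription and replication of mitochondrial DNA, 7 were lower and 1 higher, with a median of -1.56, again shares close to those of all genes. After median-of-ratios scaling 6 were lower and 3 higher. TFB2M and TFAM, which start mitochondrial transcription, averaged 0.543 ± 0.553 and 0.573 ± 0.369 TPM in siVCPIP1 and 11.5 ± 1.46 and 7.56 ± 2.07 TPM in siControl. Their log2 fold changes were -3.07 (SE 0.25, adjusted p = 2.0e-05 by limma) and -2.44 (SE 0.24, adjusted p = 2.8e-05), but -0.71 for TFB2M and -0.25, not called, for TFAM after GC and length correction. POLG2, the accessory subunit of the DNA polymerase, had a change of -2.70, and -0.90 after the correction, whereas the RNA polymerase POLRMT was higher, with 89.1 ± 6.55 TPM in siVCPIP1 and 51.3 ± 5.34 TPM in siControl (log2 fold change 0.79, SE 0.14, adjusted p = 0.00074). POLRMT and MRPL12 were both higher in every one of the 4 fits, and 10.7% of all genes were called higher in all 4. Their transcripts have 66.3% and 64.6% GC. POLRMT was named after its values were seen, and a link between the 2 genes was not tested.

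Of 8 tested transcription factors and coactivators known to act on nuclear genes for mitochondrial proteins, 7 were lower and 0 higher, with a median of -1.51, against 66.0% and 15.0% of all genes. After median-of-ratios scaling 4 were lower and 2 higher. MYC averaged 4.36 ± 4.0 TPM in siVCPIP1 and 54.2 ± 8.08 TPM in siControl (log2 fold change -3.60, SE 0.43, adjusted p = 6.8e-05 by limma), and -3.84 after GC and length correction. YY1 averaged 4.11 ± 1.47 TPM in siVCPIP1 and 30.7 ± 3.06 TPM in siControl (log2 fold change -2.66, SE 0.23, adjusted p = 2.0e-05), and the change was -1.20 after the correction. GABPB1, a subunit of GABP, had a change of -2.63, which was -0.41 and not called after the correction. PPARGC1A and PPARGC1B had means under 1 TPM and were not tested. Genes encoded by mitochondrial DNA were not analysed here.

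Some member values may include reads of other genes. In GENCODE 29, 34 of the 78 genes have at least 1 pseudogene that carries their name, among them MRPL2, MRPL3, MRPL32, MRPS36 and the 3 MRPS18 paralogs. Exons of another gene overlap 16 members on the same strand, as URGCP-MRPS24 does MRPS24 and TMEM8A does MRPL28, and 29 members on the opposite strand, as MRPL23-AS1 does MRPL23, SARS2 does MRPS12 and PSMA2 does MRPL32. Without the strand setting of the counting, reads of opposite-strand partners cannot be told apart. Of the members named above, MRPL1, MRPL41, MRPL55, MRPS30, MRPL16, MRPL18, MRPL39 and MRPL58 are among those with none of these. The 78 genes lie on 21 chromosomes.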

How the data were processed

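RNA sequencing of 3 siVCPIP1 and 3 siControl libraries was analysed from the deposited table of TPM per gene symbol, which the authors computed. Per the submitters' processing notes, the genome build was GRCh38.p13. The sources used here do not give the aligner, counter, annotation or strand setting. TPM does not keep the read depth, so no counting interval is given. Columns and samples share their names.

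Genes averaging 1 TPM or more across the 6 libraries (10966) were compared on log2(TPM + 1) by limma 3.58.1 under R 4.3.3, with a two-sided moderated test, a mean-variance trend and group as the single term. Benjamini-Hochberg adjustment ran over all genes tested, with a threshold of 0.05. Log2 fold changes are on that scale, which compresses the change of genes with low TPM. The labels name no separate cultures, so p-values reflect only how far libraries of a group varied, perhaps technically. Replicate numbers recur in both groups, but the labels do not say that they pair the libraries, and no pairing was used. Deviations of same-numbered libraries from their group means correlated at 0.531, -0.267 and 0.164. Deviations from a mean of 3 libraries depend on one another, so these values cannot settle whether libraries were paired.

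The alternatives were median-of-ratios scaling, quantile normalization, a pseudocount of 0.1 TPM, no filter, a minimum mean of 5 TPM, a replicate block, leaving out each library, and removal of each library's smooth trend over GC content and transcript length (splines of 5 and 3 degrees of freedom with their product, from 1 protein-coding GENCODE 29 transcript per gene). The fits were tested on simulated data. The members and gene lists were chosen with earlier results of these data known. Named members are the 8 largest called rises and falls with a mean of at least 5 TPM, the 5 highest means, the MRPS18 paralogs, MRPL12, MRPL58, MRPS27, MRPS36 and the 6 smallest changes not called. From each other list up to 3 called genes of largest change are named. Genes that make up counts of 5 or fewer were named after their values were seen.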

Additional observations from a re-analysis of the deposited data

How the results depend on the processing

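With median-of-ratios scaling 26 mitoribosomal genes were lower and 45 higher (median 0.51), and 4416 genes in all were higher, where TPM as deposited gave 45 and 21 (-0.71). Quantile normalization gave a median of -0.055, with 4258 lower and 4625 higher genes in all. A minimum mean of 5 TPM left 4679 lower genes and 76 tested members, and gave no value for VCPIP1 or TFAM. With GC and length correction 20 mitoribosomal genes were lower and 41 higher (median 0.28), with 3454 lower and 4060 higher genes in all. With the replicate block added to the correction these were 22, 40, 0.28, 3469 and 4037. The block alone gave 45 and 21 mitoribosomal genes and 7085 lower and 1586 higher genes in all, and not every library correlated best with its own number. Without 1 library at a time the lower members were 39 to 46 and the higher 15 to 23, the medians -0.87 to -0.60, and the lower and higher genes in all 6532 to 7853 and 1237 to 1845. Up to 12 member calls were lost, most without siVCPIP1 replicate 1, and 0 were called in the other direction.

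After median-of-ratios scaling the direction turned for MRPS18B (0.37), MRPL58 (0.47), MRPS15 (1.22), MRPS26 (1.19), MRPL36 (1.19), MRPL17 (1.18), MRPL40 (1.18), MRPL21 (1.17) and CHCHD1 (0.19), and after quantile normalization for MRPS26 (0.43) and MRPL17 (0.54). After GC and length correction, with or without the block, it turned for MRPS18C (0.55), MRPS36 (0.28), MRPS15 (0.35), MRPL17 (1.65), MRPL21 (0.34), CHCHD1 (0.31) and VCPIP1 (0.26). The cause was not tested. Unknown depth limits what can be said of genes under about 1 TPM, such as MRPL1, MRPL50 and VCPIP1 in siVCPIP1.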
